A study of Drosophila melanogaster with 3 samples.

Results

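Heat shock protein and chaperone genes are described here as a set of 35 of the 13986 protein-coding genes of the fly annotation (Release 6). Members were chosen by symbol alone, as the genes whose symbol starts with Hsp, Hsc70, DnaJ, or CCT and a digit, a rule that uses no measured value. By name they fall into 14 heat-inducible Hsp genes, 4 Hsp60 genes, 1 Hsp110 gene, 5 cognate Hsc70 genes, 3 DnaJ genes and 8 CCT genes. The word inducible refers to the known family and not to anything measured, since no heat shock is named in the labels. Of the 35 genes, 12 lie on chromosome arm 3R, 10 on 3L, 5 on 2L, 4 on 2R and 4 on X.

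The measurements are peak lists from chromatin immunoprecipitation and sequencing (ChIP-seq) of whole Drosophila melanogaster embryos, 0 to 24 hours old, with males and females pooled. The embryos came from 1 transgenic line that stably carries a protein fused at its carboxyl end to green fluorescent protein (GFP), and an antibody against GFP pulled the protein down. The tagged protein is given in the labels as CG45071, as CG6854 and as CTPsyn, the last being the gene name of CTP synthase, and the antibody entry also reads CG6854. All 3 biological replicates belong to 1 group, so the comparisons are between genes and between replicates, and no other genotype, treatment or age was examined. The promoter that drives the fusion protein and the separation of the embryo collections are not given in the labels. In whole embryos, strong binding in few cells and weak binding in many cannot be told apart.

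Molecular chaperones help other proteins to fold, to assemble and to be refolded after stress. In the heat shock response, heat shock factor binds repeated short elements upstream of the inducible Hsp genes, and at several fly Hsp genes the GAGA factor and a paused RNA polymerase keep the promoter ready before any stress. Cognate Hsc70 proteins do the same folding work in unstressed cells, DnaJ proteins deliver substrates to Hsp70 and stimulate its ATPase, and the CCT subunits form a ring that folds actin and tubulin.

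Peaks were counted in 5 lists on the dm6 build. A relaxed list of 30000 peaks came with each replicate and with the pooled replicates, and its weak end holds background. The optimal list held 3545 peaks selected by irreproducible discovery rate, which estimates for each peak how poorly its rank is reproduced between ranked lists. Each optimal peak reported here had the same rank in the pooled list, so these lists are not independent. A peak of the optimal list need not be in the top list of each replicate. A top list was cut from each replicate list at the same 3545 peaks. Every peak has a signal, the authors' own value for that peak, which was used only to rank peaks within a list, with rank 1 the strongest. The signal ran from 2397 to 113.7 in the optimal list. A summit within 500 bp of any annotated transcription start site (TSS) of a gene was counted as a promoter summit, and a summit inside the gene but farther from every TSS as a gene body summit. Depth is unknown from peak lists. There was 1 group, so no test was run, and the main counts stand beside the same count over all protein-coding genes.

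An optimal promoter summit was found at 7 of the 35 genes, 20%, beside 14.1% of all protein-coding genes. These were Hsp83, Hsp27, Hsc70-5, Hsp26, DnaJ-1, DnaJ-H and CCT3. By group they were 3 of 14 inducible Hsp genes (21.4%), 1 of 5 Hsc70 genes (20%), 2 of 3 DnaJ genes (66.7%) and 1 of 8 CCT genes (12.5%). None of the 4 Hsp60 genes and not the Hsp110 gene had one. The groups are small, and a difference of 1 gene moves these shares by several points, so no order of the groups is read from them. Within 100 bp of a TSS, 3 members had an optimal summit (Hsp83, Hsp26 and Hsc70-5; 8.57%, beside 4.99% of all genes).

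In the pooled list, 19 of 35 genes had a promoter summit, 54.3%, beside 51.2% of all protein-coding genes. The groups lay on both sides of that background. Among inducible Hsp genes 4 of 14 had a pooled promoter summit (28.6%) and among Hsp60 genes 1 of 4 (25%), while the Hsp110 gene, 4 of 5 Hsc70 genes (80%), 3 of 3 DnaJ genes and 6 of 8 CCT genes (75%) had one. Of the 14 inducible genes, 6 are Hsp70 copies with largely repeated sequence, where unplaced reads and absent binding cannot be told apart. Without them, 4 of 8 had a pooled promoter summit (50%), close to the 51.2% of all genes, a count chosen after seeing the data. Of the 19 genes, 7 reached the optimal list, 36.8%, beside 27.5% of all genes with a pooled promoter summit. The strongest promoter summit of a gene had a median rank of 935 over the 7 members in the optimal list, beside 1528 over all genes in it. In the pooled list the medians were 4955 over 19 members and 7576 over all genes with a summit.

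**Figure D1:**
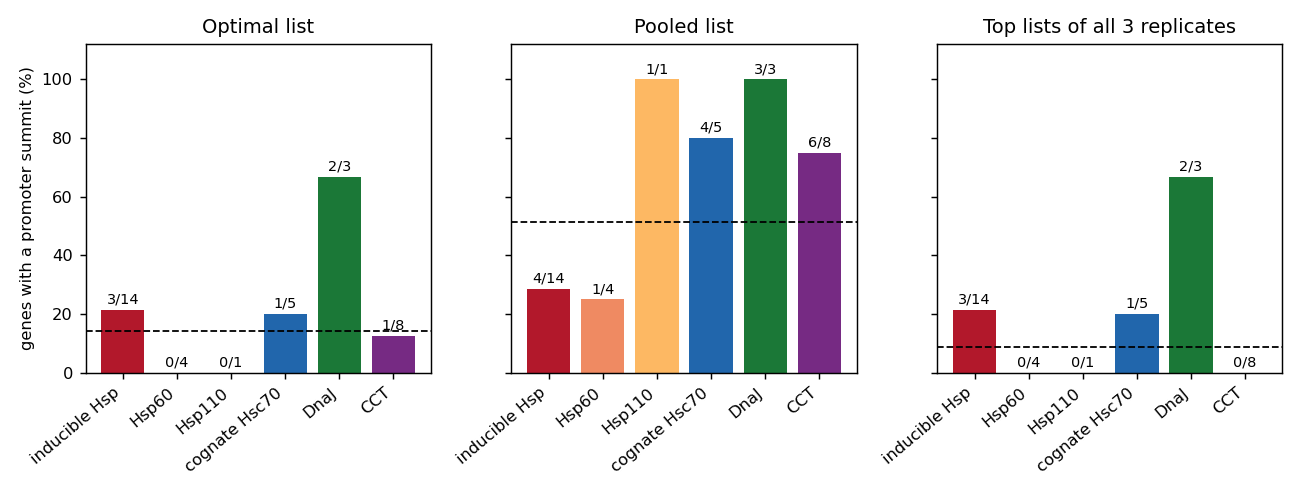
Bars show the percentage of genes in each chaperone group with a promoter summit in the optimal list, in the pooled list and in the top list of all 3 replicates, with counts above the bars, and the dashed line marks the percentage of all protein-coding genes. In the pooled panel the inducible Hsp (28.6%) and Hsp60 (25%) bars lie below the line at 51.2%, and the other 4 bars lie above it, while without 6 Hsp70 copies of repeated sequence the inducible share is 50%.

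The replicates taken singly gave similar counts. A promoter summit was listed among the 30000 peaks of replicate 1 at 20 members, beside 47.6% of all protein-coding genes, of replicate 2 at 20 members, beside 52.3%, and of replicate 3 at 22 members, beside 48.8%. In percent of the 35 members these were 57.1, 57.1 and 62.9. In all 3 replicates 18 members had one (51.4%, beside 33.8%), 3 members had one in 2 replicates, 2 members in 1 replicate and 12 members in no replicate. The counts for 2, 1 and no replicates were not made over all genes, so nothing is read from them. The 12 include the repeated copies Hsp70Aa, Hsp70Ba, Hsp70Bb, Hsp70Bbb and Hsp70Bc, where reads may not be placed. In the top lists, 10 members of replicate 1 (28.6%, beside 14.2%), 9 of replicate 2 (25.7%, beside 14.2%) and 7 of replicate 3 (20%, beside 14.2%) had a promoter summit. In the top list of every replicate there were 6 members (17.1%), beside 8.69% of all genes. These 6 were the members of the optimal list without CCT3, whose rank in replicate 3 was 5768.

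**Figure D2:**
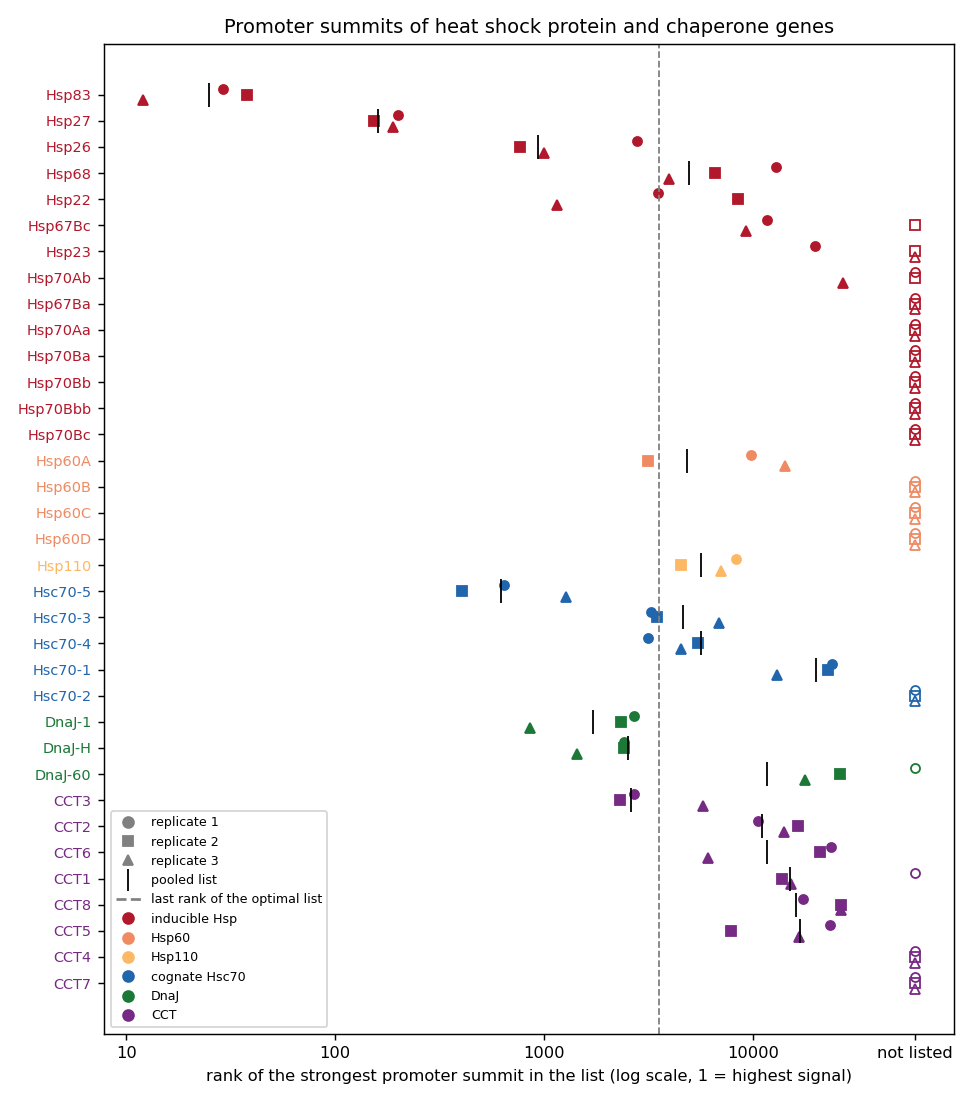
Each row is 1 gene, and points give the rank of its strongest promoter summit in the lists of replicate 1, 2 and 3 on a log scale, with a black tick for the pooled list, open points for genes with no promoter summit in that list, and a dashed line at rank 3545, the length of the optimal list. Hsp83 and Hsp27 rank under 200 in all 3 replicates, while 12 genes have open points in all 3 replicates. Among these 12 are Hsp70 copies of repeated sequence, where reads may not be placed.

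Among the inducible genes, Hsp83 had the strongest peak. It encodes the fly Hsp90, an abundant chaperone that completes the folding of kinases and receptors and is made without stress as well. The promoter peak lay at 3L:3192915-3193278 with a signal of 1038 and ranked 25 in the optimal list. It ranked 29, 38 and 12 in replicates 1, 2 and 3, with signals of 220.4, 402.9 and 420.5, and the 3 replicate summits lay within 12 bp of each other. The ranks were high in every replicate. The summit lay 93 bp upstream of the inner of 2 annotated TSSs, at position 3193216, and so inside the 5′ untranslated exon of the longer transcript, which starts at 3192969. The TSS of CG14965, on the opposite strand, also lies within 500 bp of an Hsp83 TSS, but Hsp83 was the gene nearest to the summit.

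A second Hsp83 peak lay in the intron, 1029 bp downstream of the inner TSS (3L:3194150-3194361). Its signal was 358.5 and its rank in the optimal list 414. It ranked 542, 540 and 322 in the 3 replicates, with summits within 11 bp of each other. Hsp83 was the only member with optimal peaks both at a TSS and in the gene body. A short site and the intron peak are printed for Hsp83 because the 2 peaks differ in what their sequence holds. Capitals mark heat shock element pairs, in which 2 units of the heat shock factor site face each other (GAANNTTC or TTCNNGAA), and GAGA elements (GAGAG, or CTCTC on the other strand). Both motifs were searched on both strands, and a match is a description of the letters. The site lies at 3L:3193137-3193166 on the plus strand, and the centre of its pair was 28.5 bp from the promoter summit. The intron peak held neither motif, and its nearest heat shock element pair was 107.5 bp from its summit. Sequences here are of the Release 6 assembly from RefSeq, 5′ to 3′.
Hsp83 site in the promoter peak: agaagcctctaGAAGTTTCtagagacttcc
Hsp83 intron peak: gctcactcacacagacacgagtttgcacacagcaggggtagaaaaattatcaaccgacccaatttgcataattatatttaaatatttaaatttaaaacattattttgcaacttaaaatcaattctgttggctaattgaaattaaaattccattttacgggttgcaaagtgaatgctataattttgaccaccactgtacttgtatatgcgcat

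The small Hsp genes of 1 cluster on 3L encode chaperones that hold unfolded proteins without using ATP, several of them also made during normal development under ecdysone. Of the 6 cluster genes in the set (Hsp22, Hsp23, Hsp26, Hsp27, Hsp67Ba and Hsp67Bc), 2 had an optimal promoter summit (33.3%, beside 14.1% of all protein-coding genes). Hsp27 had the stronger peak. It lay at 3L:9383790-9384052 with a signal of 566.1 and ranked 161 in the optimal list. It ranked 199, 154 and 189 in replicates 1, 2 and 3, with signals of 118.3, 251.4 and 186.3. The summit lay 122 bp upstream of the single TSS, and the replicate summits lay 110, 139 and 130 bp upstream. All 3 replicates placed the summit directly upstream of the gene, outside it. The whole peak is printed on the plus strand, which is the strand of the gene, because it is the strongest peak of the cluster and holds no heat shock element pair. The nearest pair was 212.5 bp from the summit, and 1 GAGA element lies at its upstream end.
Hsp27 peak: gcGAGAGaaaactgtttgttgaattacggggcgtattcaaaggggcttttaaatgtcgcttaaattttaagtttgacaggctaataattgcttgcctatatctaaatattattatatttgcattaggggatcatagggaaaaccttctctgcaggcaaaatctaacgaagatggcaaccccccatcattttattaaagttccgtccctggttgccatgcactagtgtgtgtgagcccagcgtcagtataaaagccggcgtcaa

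Hsp26 had its optimal promoter peak at 3L:9377263-9377698, with a signal of 237 and rank 935. It ranked 2796, 770 and 1005 in the 3 replicates, with signals of 33.87, 113.6 and 84.36. Replicate 1 ranked it lowest, yet within its top list. The summit lay 54 bp upstream of a TSS, and the replicate summits lay 76, 61 and 92 bp upstream. The nearest GAGA element centre was 3 bp from the summit, and 9 GAGA elements and 4 heat shock element pairs lay within 250 bp of it. The stretch upstream of the first TSS is printed because the summit falls in its run of GAGA elements (3L:9377428-9377627, minus strand).
Hsp26 upstream: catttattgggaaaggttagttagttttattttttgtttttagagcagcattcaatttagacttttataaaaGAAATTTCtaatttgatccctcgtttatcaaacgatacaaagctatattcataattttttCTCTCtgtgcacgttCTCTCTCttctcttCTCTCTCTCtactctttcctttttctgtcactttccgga

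Hsp22, whose protein works in mitochondria, had an optimal peak that was counted in the gene body and not at the promoter. The peak (3L:9373249-9373684) had a signal of 207.3, ranked 1202 in the optimal list and 3507, 996 and 1160 in the 3 replicates. Its summit lay 530 bp upstream of the inner TSS, inside the 5′ untranslated exon of the longer transcript and inside the overlapping gene CG4456. The replicate summits lay 437, 527 and 440 bp upstream, so 2 of 3 fell inside the 500 bp window and the pooled summit fell just outside it. Hsp22 therefore had a promoter summit in the top lists of replicates 1 and 3, at ranks 3507 and 1160, and none in the pooled list. The other 3 cluster genes were lower or not listed. Hsp67Bc had promoter summits at rank 11707 in replicate 1 and 9268 in replicate 3, which also count for Hsp22, with which it shares the window. Hsp23 had 1 at rank 19880 in replicate 1. Hsp67Ba had none in any list.

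**Figure D3:**
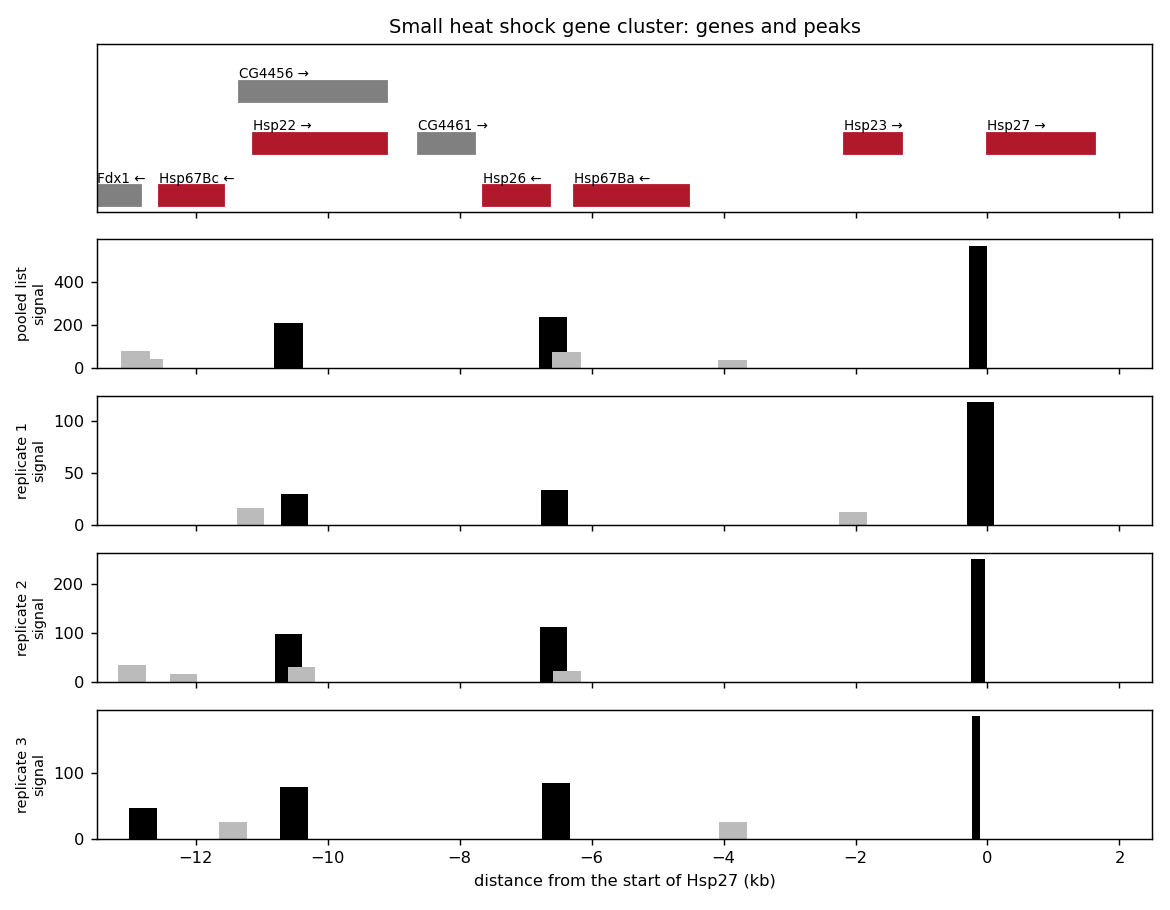
The upper panel shows protein-coding genes of the small Hsp cluster by distance in kb from the start of Hsp27, with Hsp genes in red, other genes in grey and arrows for the strand, and the lower panels show peaks of the pooled list and of each replicate, with the authors' signal as height, in black where the rank is within 3545. Black bars stand at Hsp27, Hsp26 and the 5′ part of Hsp22 in the pooled list and in all 3 replicates, replicate 3 has another over the start of Fdx1, and none stands at Hsp23 or Hsp67Ba.

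The Hsp70 family holds the best known heat-inducible chaperones, which bind exposed stretches of unfolded proteins in an ATP cycle. None of its 7 genes had an optimal promoter summit. Hsp68 had the only pooled one, at 3R:24057109-24057544, with a signal of 94.38 and rank 4955, below the 3545 peaks of the optimal list. It ranked 12917, 6608 and 3971 in the 3 replicates, with summits 1, 24 and 45 bp upstream of the TSS, so the position was close in all 3 while the rank was not. Hsp70Ab had a promoter summit in replicate 3 at rank 27172 and in no other list. Hsp70Aa, Hsp70Ba, Hsp70Bb, Hsp70Bbb and Hsp70Bc had none in any of the 5 lists. The pooled summit nearest to a TSS of these 6 Hsp70A and Hsp70B genes was between 6402 bp away, for Hsp70Aa, and 20185 bp away, for Hsp70Bbb.

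The 6 Hsp70 copies share much of their sequence, which bears on whether reads can be placed at them. Of all 50-base words within 500 bp of the TSS, 74.9% occurred again in the genome for Hsp70Aa, 77.1% for Hsp70Ab, 57.5% for Hsp70Ba, 93.4% for Hsp70Bb, 94.7% for Hsp70Bbb and 100% for Hsp70Bc, in up to 7 copies. Among the other members only Hsp60D (46.3%), CCT2 (12.9%) and Hsp83 (2.84%) held any such word. Read length and the handling of reads with several placements are not given in the sources used here, so a lack of binding and a lack of placed reads cannot be told apart at these 6 genes. Without them, 7 of 29 members had an optimal promoter summit (24.1%, beside 14.1% of all protein-coding genes), a count chosen after seeing the data.

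Heat shock elements were frequent in the promoters of the Hsp70 family. In the 300 bases from 250 before to 50 after the 5′ end of a gene, 17 of 35 members held a heat shock element pair (48.6%), beside 15.9% of the promoters of 13945 genes. A longer element, 3 alternating units in a row, was found at 7 members (20%), beside 0.43% of all promoters, and these 7 were Hsp68 and the 6 Hsp70A and Hsp70B genes. Hsp68 held 6 pairs, Hsp70Aa and Hsp70Ab 5 each, and the 4 Hsp70B genes 3 each, as did Hsp26 outside the family. Overlapping pairs, which share a unit, were each counted at Hsp68 and the Hsp70 genes, while the 3 pairs of Hsp26 lie apart. These numbers are therefore not numbers of separate elements. GAGA elements were found at 15 members (42.9%, beside 29.7%), with 6 to 8 at each Hsp70A and Hsp70B gene and 0 at Hsp68. A TATAAA box was found at 24 members (68.6%, beside 45.8%), 13 of them among the 14 inducible genes. The 6 Hsp70 copies, which share much of their sequence, count as 6 separate members in each of these 4 motif shares. They raise the member shares, which are therefore not shares of independent promoters. None of the 7 members with 3 alternating units in that window had an optimal promoter summit, beside 14.1% of all protein-coding genes. Of these 7, 6 are the repeated Hsp70 copies, where reads may not be placed, so nothing is read from this count. Outside that window, DnaJ-H had 3 alternating units centred 18 bp from its strongest optimal promoter summit. The promoters of 3 genes are printed on the minus strand because they hold 3 alternating units and had no optimal peak, with Hsp68 at 3R:24057311-24057510, Hsp70Aa at 3R:11956545-11956794 and Hsp70Ba at 3R:12467777-12467976.
Hsp68 upstream: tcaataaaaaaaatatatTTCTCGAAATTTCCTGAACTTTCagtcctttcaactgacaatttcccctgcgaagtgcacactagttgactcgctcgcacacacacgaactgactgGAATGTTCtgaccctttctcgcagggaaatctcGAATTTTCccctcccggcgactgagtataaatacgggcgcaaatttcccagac
Hsp70Aa upstream: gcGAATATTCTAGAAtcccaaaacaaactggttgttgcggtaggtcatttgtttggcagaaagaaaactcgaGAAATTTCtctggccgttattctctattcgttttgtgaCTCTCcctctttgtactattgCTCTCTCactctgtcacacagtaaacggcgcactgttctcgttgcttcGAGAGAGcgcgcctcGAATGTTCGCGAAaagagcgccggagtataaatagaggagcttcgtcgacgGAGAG
Hsp70Ba upstream: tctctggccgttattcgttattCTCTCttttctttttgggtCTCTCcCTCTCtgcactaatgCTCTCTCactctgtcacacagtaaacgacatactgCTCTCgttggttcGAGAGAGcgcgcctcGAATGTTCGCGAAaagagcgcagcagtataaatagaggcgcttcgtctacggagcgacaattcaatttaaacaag

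**Figure D4:**
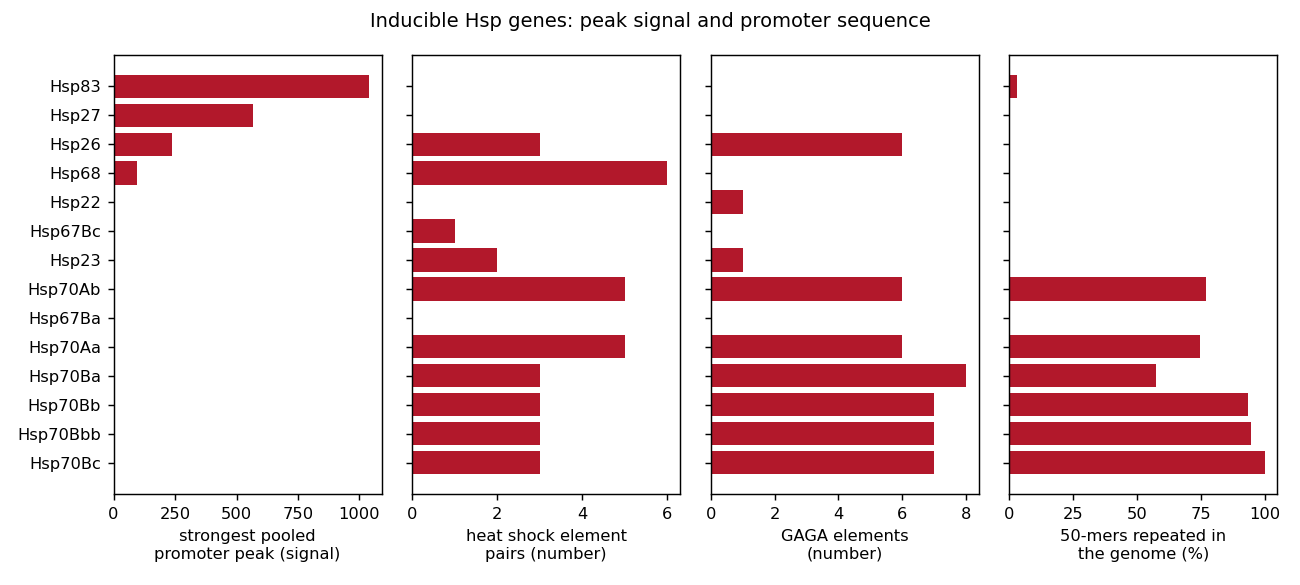
For the 14 inducible Hsp genes, bars give the signal of the strongest pooled promoter peak (0 where there is none), the number of heat shock element pairs and of GAGA elements in the 300-base promoter at the 5′ end of the gene, and the percentage of 50-base words near the TSS that are repeated in the genome. Hsp83 and Hsp27 have the highest signals (1038 and 566.1) and no heat shock element pair in that window. For Hsp83 the window lies at the outer TSS and does not reach the promoter summit, which has a pair 28.5 bp away. The 6 Hsp70A and Hsp70B genes have 3 to 5 pairs, with overlapping pairs each counted, no pooled promoter peak and the highest repeated shares.

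The mitochondrial chaperonin Hsp60 and the exchange factor Hsp110, which helps Hsp70 to release ADP, reached only the pooled list. Hsp60A, the broadly used Hsp60 gene, had its strongest promoter peak at X:11108072-11108507, with the summit 192 bp upstream of a TSS, a signal of 95.76 and rank 4831. The strongest overlapping peaks of replicates 1, 2 and 3 ranked 9851, 3165 and 25054, and only that of replicate 2 was within a top list. Replicate 3 had a stronger Hsp60A promoter summit at another TSS, at rank 14273. Hsp60B, Hsp60C and Hsp60D, relatives of Hsp60A, had no promoter summit in any list. Hsp110 had a pooled summit 30 bp downstream of a TSS (3L:14036831-14037266, signal 87.92, rank 5666), and the strongest overlapping replicate peaks had summits 30, 19 and 38 bp downstream, at ranks 8274, 13263 and 7030. These 3 positions were close, but none of these ranks was within a top list.

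Among the cognate genes, Hsc70-5, the mitochondrial Hsp70, had the only optimal promoter summits. Its stronger peak lay at 2R:14255999-14256434 with the summit 25 bp upstream of the TSS, a signal of 295.3 and rank 625. The strongest overlapping peaks of replicates 1, 2 and 3 ranked 642, 407 and 1270, with signals of 69.45, 158.3 and 74.61. Their summits lay 157 bp upstream, 11 bp downstream and 18 bp downstream, a spread of 175 bp. A second, overlapping peak (2R:14256200-14256635, rank 3116) had its summit 226 bp upstream and nearest, at 75 bp, to the TSS of CG8531. CG8531 starts on the opposite strand within the same window, and the pooled summit of the stronger peak was nearer to Hsc70-5. The same 3 replicate peaks were the strongest overlapping ones for both pooled peaks. The single replicate 1 summit lay nearer to the second pooled summit, and slightly nearer to the TSS of CG8531 than to that of Hsc70-5. Replicates 2 and 3 each had another summit near the second one, at ranks 752 and 3157, within their top lists. A separate summit next to the Hsc70-5 TSS was thus seen in replicates 2 and 3 only.

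The other Hsc70 genes had weaker promoter summits or none. Hsc70-3, the Hsp70 of the endoplasmic reticulum also known as BiP, had its strongest pooled summit 442 bp upstream of a TSS (X:11807341-11807776, signal 98.39, rank 4622), and the strongest overlapping replicate peaks ranked 3254, 3465 and 12047. The first 2 were within the top lists and the third was not. Hsc70-4, the main cytosolic Hsc70, which also uncoats clathrin vesicles, had a pooled summit 33 bp downstream of a TSS (3R:15242502-15242937, signal 87.97, rank 5661), with ranks of 3147, 5461 and 4555, of which only the first was within a top list. Hsc70-1 had a weak pooled summit at rank 20032, and Hsc70-2 had no promoter summit in any list, with 1 gene body summit at rank 18989 in replicate 1.

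All 3 DnaJ genes had pooled promoter summits and 2 had optimal ones. DnaJ-1, the main J-domain partner of Hsp70 in the cytosol and itself heat-inducible, had a peak at 3L:5751864-5752299 with a signal of 171 and rank 1710. It ranked 2713, 2339 and 855 in the replicates, with signals of 34.34, 62.38 and 91.47. The pooled summit lay 107 bp downstream of the TSS, in the 5′ untranslated exon, and the replicate summits 254, 292 and 120 bp downstream. Replicate 2 also had a weaker summit 87 bp downstream, nearer to the pooled one, at rank 7674, outside its top list. Of the 10 optimal promoter summits at members, this one and a weaker one of DnaJ-H lay downstream of the TSS. DnaJ-H, another gene of the J-domain family, had 3 optimal summits around its 2 TSSs. The strongest lay 118 bp upstream of a TSS, in an intron of the longer transcript (2L:13164918-13165353, signal 136.1, rank 2536), and ranked 2413, 2430 and 2745. The summits of replicates 1 and 2 lay 126 and 132 bp upstream and that of replicate 3 lay 373 bp upstream. Replicate 3 also had a summit at the pooled position, 118 bp upstream, but at rank 4259, outside its top list. The others ranked 3525 and 3527, near the end of the optimal list, and were nearest to the TSS of Sirt1. The strongest DnaJ-H summit had a heat shock element pair 15.5 bp away and 3 alternating units centred 18 bp away, which 3 of 1757 optimal promoter summits (0.171%) had within 100 bp. The bases around that summit (2L:13165036-13165236) and those upstream of DnaJ-1 (3L:5752190-5752309) are printed on the minus strand, the first for that element and the second for its TATCGATA, the DNA replication-related element, which begins at position -72. That element was found at 5 of 35 members (14.3%), beside 9.36% of all promoters. The DnaJ-1 stretch holds no whole heat shock element pair, since its pair starts at position -7 and runs over the TSS.
DnaJ-H summit: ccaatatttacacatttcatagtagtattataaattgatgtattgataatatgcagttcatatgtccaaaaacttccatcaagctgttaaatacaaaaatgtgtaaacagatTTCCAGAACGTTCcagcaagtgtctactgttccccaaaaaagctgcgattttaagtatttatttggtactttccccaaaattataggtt
DnaJ-1 upstream: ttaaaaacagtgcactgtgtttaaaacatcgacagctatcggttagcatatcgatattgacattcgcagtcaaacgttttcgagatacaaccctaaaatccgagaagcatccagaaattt

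DnaJ-60 had the weakest summit of the 3 DnaJ genes. Its pooled summit lay 124 bp upstream of the TSS (2R:24159218-24159653, signal 56.32, rank 11650), but the nearest TSS was that of spag, at 52 bp. The summit was listed at rank 26281 in replicate 2 and 17752 in replicate 3, and not in replicate 1.

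The CCT genes encode the 8 subunits of the cytosolic chaperonin ring, which are needed in equal numbers. Their promoter summits differed in rank although 6 of 8 had a pooled one. CCT2 had a pooled summit at rank 11074 (X:9089511-9089946, 216 bp downstream of the TSS, signal 58.15), with replicate ranks of 10604, 16485 and 14181. CCT6 had its strongest at rank 11722 (X:15746092-15746527, 338 bp upstream, signal 56.12), and that summit was nearer to the TSS of CG8944, at 79 bp. CCT1 at rank 15058, CCT8 at 16205 and CCT5 at 16796 were in the lower part of the pooled list, and CCT4 and CCT7 had no promoter summit in any list. None of these 7 genes was in a top list of any replicate. A promoter feature shared by 7 of the 8 CCT genes was a pair of CGATA motifs, which 12 of 35 members (34.3%) and 22% of all promoters held, and CCT6 was the exception.

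CCT3 was the only subunit gene with an optimal promoter summit. The peak lay at 3R:16646938-16647373 with a signal of 133.7 and rank 2621. Replicates 1, 2 and 3 ranked it 2700, 2303 and 5768, with signals of 34.43, 62.86 and 33.76 and summits 449, 420 and 435 bp upstream of the TSS. The 3 positions lay within 29 bp, near the outer edge of the window. The nearest TSS was that of CG10324, at 152 bp, so the peak was counted for CCT3 by the window and not by nearness. The bases around the summit are printed because this is the member peak whose assignment is least certain, and they hold neither a heat shock element pair nor a GAGA element (3R:16647056-16647256, plus strand).
CCT3 summit: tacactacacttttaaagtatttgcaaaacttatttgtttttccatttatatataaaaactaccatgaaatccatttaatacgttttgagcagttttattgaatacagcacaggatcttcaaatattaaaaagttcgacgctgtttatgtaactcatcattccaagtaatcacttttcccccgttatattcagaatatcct

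Positions were taken for the 10 optimal promoter summits at the 7 genes. Of the 10, 8 lay upstream of the nearest TSS of the member, with a median position of 105.5 bp upstream. Among these, the Hsp83 summit and the DnaJ-H summits at ranks 2536 and 3525 lay inside the gene, upstream of an inner TSS only. In every replicate, 8 overlapped a peak of the top list, whose own summit can lie elsewhere. For 6 of 10 the member was the nearest protein-coding gene. The same counts were not made over all optimal promoter summits, so none is read as a trait of the members. Of the 35 members, 10 had another protein-coding TSS within 500 bp, with at least 1 on the opposite strand at each, and 2 of these, Hsp83 and Hsc70-5, were in the optimal list. This count of neighbouring TSSs was not made over all genes either, and is not read as a trait of the members. A heat shock element pair lay within 100 bp of 5 of the 10 summits, at DnaJ-H, Hsc70-5, Hsp26 and Hsp83, beside 9.73% of the 1757 optimal promoter summits of the genome. At Hsc70-5 this was the weaker summit, nearest to CG8531, and the stronger had no pair within 250 bp. DnaJ-H counts with 2 summits, 1 of them nearest to Sirt1. A GAGA element lay within 100 bp of 1 of the 10, at Hsp26, beside 30.3%, and a TATAAA box within 100 bp of 8, beside 33.4%. Of the other motifs searched in the promoters, CACGTG was found at 0 members (4.2% of all promoters), CAGCTG at 4 (11.4%, beside 17.7%) and GGTCACACT at 1 (2.86%, beside 6.05%).

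**Figure D5:**
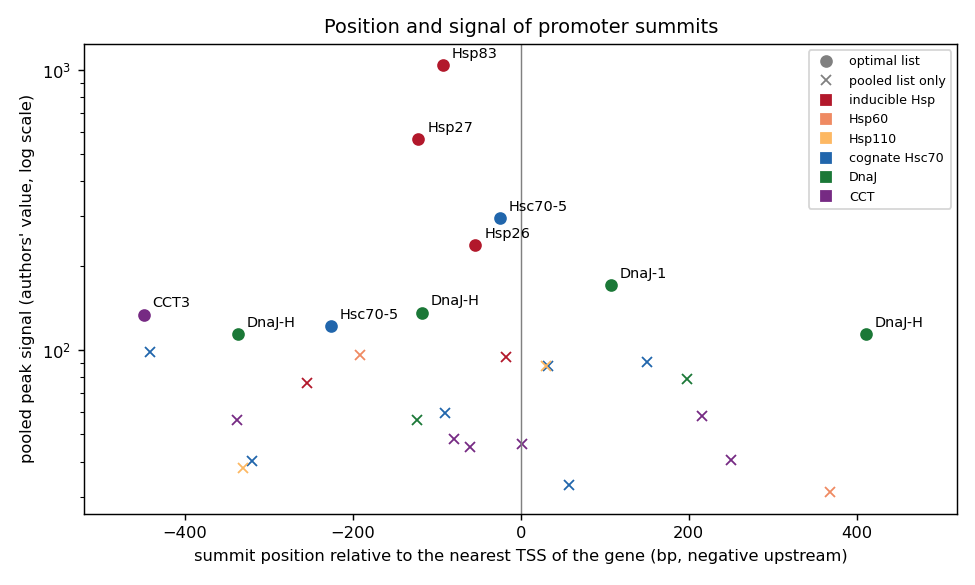
Each point is a promoter summit of a member, with its position relative to the nearest TSS of that gene in bp and its pooled signal on a log scale, as circles for the optimal list and crosses for the pooled list alone, coloured by group. The 4 strongest, at Hsp83, Hsp27, Hsc70-5 and Hsp26, lie between 25 and 122 bp upstream, and the summits of CCT3 and of 2 weaker DnaJ-H peaks lie farther out.

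The share of members with an optimal gene body summit was close to that of all genes. An optimal gene body summit was found at 2 of 35 members, Hsp83 and Hsp22 (5.71%), beside 6.56% of all protein-coding genes, and a pooled one at 8 members (22.9%), beside 29.7%. The median gene length was 2374 bp over the members and 2162.5 bp over all genes, and 31.4% of members and 26.5% of all genes had several TSSs. The 8 members with a pooled gene body summit were 2 inducible Hsp genes, Hsp60A, Hsp110, Hsc70-3, DnaJ-1, CCT5 and CCT7.

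Other chaperone genes and regulators of heat shock genes, outside the symbol rule, were described by the same count. Of 59 genes given, 53 were matched to the annotation, and 9 of these (17%) had an optimal promoter summit, close to the 14.1% of all protein-coding genes. Each of the lists that make up the 53 is short. Among J-domain genes 3 of 12 had one (25%), including mrj, which encodes a DnaJ protein (rank 330, and 472, 291 and 324 in the replicates), and Rme-8, which acts in endocytosis (rank 849, and 1630, 729 and 925). Among Hsp70 cofactors stv (starvin), the fly BAG-domain cochaperone, was the only 1 of 5 (rank 1405, and 1639, 517 and 901). Of the 6 prefoldin genes, which pass unfolded actin and tubulin to CCT, mgr had one (rank 904, and 1408, 704 and 1329). None of the 11 Hsp90 partner genes had one, although 9 had a pooled summit (51.2% of all genes had one), and none of the 5 other small Hsp genes had either.

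Of the 14 genes that regulate heat shock genes, 4 had an optimal promoter summit (28.6%, beside 14.1% of all genes). The strongest was at Nelf-E, a subunit of the pausing factor NELF (rank 207, and 172, 301 and 193), but the gene nearest to that summit was RpL14. Trl, which encodes GAGA factor, ranked 746 (910, 436 and 1862 in the replicates). Hsf, the gene of heat shock factor itself, had a pooled promoter summit at rank 6936 and none in the optimal list.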

How the data were processed

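ChIP-seq peak lists on dm6 were used as deposited, and the lists on dm3 were not used here. Per the submitters' file list, the authors made a list per replicate against 1 control file, 1 list from all 3 replicates pooled, and an optimal list from those by IDR. The aligner, peak caller, IDR threshold and read length are not given in the sources used here. Peaks were ranked by signal, which is the authors' own value per peak in the deposited files. The deposited −log10 q-values entered no step. Depth is unknown.

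Genes and TSSs came from Ensembl release 115 on Release 6, the assembly of the files, and bases from the RefSeq FASTA of Release 6. For 1 peak whose summit lay past its end, the last base was used. Hsp110 starts with Hsp but fits none of the planned groups and was set apart after seeing the annotation. Motifs were searched on both strands from 250 before to 50 after the 5′ end of the gene and within 100 bp of optimal summits, and distances to summits within 250 bp. In the numbers of heat shock element pairs and GAGA elements, overlapping matches were each counted. The replicate rank and summit given for a peak are those of the strongest overlapping peak in that replicate. Repeats were counted as words of 50 bases on both strands of the genome. The code of the window rule was checked on summits planted at known offsets, which does not test whether a summit belongs to the gene it is counted for. Members, other lists and groups were chosen with earlier results of these data known, so no pattern here is independent support for them. Every member was named. Full values went to members with an optimal summit and to up to 2 per group with the strongest pooled one, and up to 2 genes were named per other list. Hsf was named outside this rule, after its values were seen. Other windows, 5′ ends only, overlap in place of summits, nearest TSS only, shorter lists, a stricter symbol rule and leaving out each replicate were tried as alternatives. Versions were Python 3.11.15, numpy 2.4.6, pandas 2.3.3 and matplotlib 3.10.9.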

Additional observations from a re-analysis of the deposited data

How the results depend on the processing

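Over all alternatives to 13 counts and shares, 94 values stayed within the margin set for them and 18 moved. The margin was a ratio to the main count, or for shares an interval that takes genes as independent. Such margins are wide for counts this small. With them, 4 in place of 6 members in every top list, and 50% in place of 28.6%, counted as staying. Hsp60 and Hsp110 counts that stayed at 0 are among the 94 as well. The tally is therefore not read as a measure of robustness. A window of 100 bp in place of 500 bp left 3 of 7 members with an optimal promoter summit (DnaJ 0, CCT 0), 11 of 19 with a pooled one, 2 of 6 in the top list of every replicate and 2 of 9 other chaperone genes. CCT3 was also lost with a window of 250 bp (CCT 0), with the nearest TSS only (0) and among the 1772 strongest optimal peaks (0), where DnaJ had 1. A window of 1000 bp gave 5 inducible Hsp genes, adding Hsp22 and Hsp67Bc. With a digit required after every prefix the DnaJ group had 1. Over members with a pooled summit the share was 36.8%, and without the Hsp70A and Hsp70B copies, chosen after seeing the data, it was 24.1%, and the pooled share of inducible Hsp genes was 50% in place of 28.6%. Top lists of 1772 peaks held 3 members in every replicate. Gene body summits over 100 bp and over 1000 bp from every TSS were at 4 and 1 members. Leaving out each replicate in turn gave 0 to 1 CCT genes, 0 without replicate 1 and without replicate 2. That setting filters the optimal list, whose peaks came from all 3 replicates, so the replicate left out still has a part in it. Background shares of the optimal promoter count moved with the window as well (4.99% at 100 bp, 16.8% at 1000 bp). For the pooled, top list and gene body counts, the share of all genes was not taken at the altered settings. A change in those counts is therefore not read as a trait of the members. No paired analysis was possible because there was 1 group. Peak lists without depth cannot separate absent binding from binding too weak to be called.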

Other observations

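The noncoding heat shock gene lncRNA:Hsromega (3R:21296127-21317836), whose transcripts gather in nuclear speckles after heat shock, is outside the protein-coding set and had 2 annotated TSSs. It had an optimal promoter summit at rank 485, with ranks of 2710, 425 and 338 in replicates 1, 2 and 3. A second optimal summit lay in its gene body at rank 1083, with ranks of 1505, 838 and 972. Both were thus within the top list of every replicate.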
